A study of Mus musculus with 211 samples.

Results

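The antioxidant and redox repair genes described here are 10 genes of the adult cochlear single-cell data set: *Msrb1*, *Msra*, *Sod1*, *Sod2*, *Prdx1*, *Prdx5*, *Gpx1*, *Gpx4*, *Txn1* and *Cat*. They were chosen by name for their function, and each was found in the count table by its Ensembl identifier, so all 10 of 10 were present among 48709 genes. Single cells came from the cochleae of CD1 mice of the Lfng-EGFP line, in which an EGFP reporter marks cells that use the *Lfng* gene. GFP-positive cells were sorted by FACS at P60 or P120, captured on the Fluidigm C1, and each gave 1 full-length cDNA library. The groups were thus untreated Lfng-EGFP mice of either age, with 48.3% of the 211 cells at P60, in 8 captures, and 51.7% at P120, in 4 captures. A capture pools the cochleae of several mice and was taken as the replicate, and the study removed endothelial cells and outliers before the counts were deposited.

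A cell held between 41 and 5361476 reads on genes, and capture 10c held only 119240 reads in its 13 cells. For shares of cells, each cell was thinned at random to 50000 reads, a depth that 164 cells reached, 80 at P60 and 84 at P120. The labels call the cells adult cochlear supporting cells (SCs), and the marker genes went against this label in most of them. A list of 15 SC genes took 0.0444% of reads, and 5 of 211 cells held at least 3 of them at 10 or more reads, including 2 of the 5 cells of capture 21c. A list of 11 neutrophil genes took 16.1% of reads, and 197 of 211 cells held at least 3 of those at 10 or more reads. The values below are therefore given for GFP-sorted cochlear cells by capture and by marker class, and not as levels in SCs.

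Cells that use oxygen continually form superoxide and hydrogen peroxide, which oxidize lipids, proteins and DNA. Superoxide dismutases turn superoxide into hydrogen peroxide, and catalase, glutathione peroxidases and peroxiredoxins remove the peroxide. Thioredoxin passes electrons to peroxiredoxins and to the methionine sulfoxide reductases, which repair oxidized methionine in proteins. In the cochlea these enzymes are studied in noise damage, ototoxic drugs and age-related hearing loss, and in granulocytes they act beside enzymes that make oxidants on purpose.

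Of the 10 genes, 3 encode selenoproteins, whose active site holds selenocysteine, an amino acid written by a TGA codon that is otherwise a stop. *Msrb1* reduces the R form of methionine sulfoxide, *Gpx1* is the abundant cytosolic glutathione peroxidase, and *Gpx4* reduces lipid peroxides in membranes. The coding sequence around this codon is shown for each, because it separates these members from the cysteine or metal enzymes of the list. It is written 5′ to 3′ on the + strand of GRCm38 from the GENCODE vM21 transcripts, with the TGA in capitals. Exon and codon numbers are those of 1 transcript per gene. The codon is annotated in 3 transcripts of *Gpx4*, 2 of *Msrb1* and 1 of *Gpx1*, and its number in the others was not read.
*Msrb1*, exon 3 of 4, codon 95 of 116, chr17:24740128-24740190: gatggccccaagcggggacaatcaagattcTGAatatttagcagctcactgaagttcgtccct
*Gpx1*, exon 1 of 2, codon 47 of 201, chr9:108339421-108339483: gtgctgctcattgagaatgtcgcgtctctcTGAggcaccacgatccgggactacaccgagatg
*Gpx4*, exon 3 of 7, codon 129 of 253, chr10:80054707-80054769: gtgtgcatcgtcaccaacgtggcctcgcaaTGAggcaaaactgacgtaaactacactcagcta

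Together the 10 genes took 0.501% of all reads on genes. Levels were compared between genes as CPM (reads scaled to a library of 1000000 reads) of the summed counts of a capture, divided by the exon length of the gene in kilobases. *Gpx1* stood highest, at 1516 ± 887 CPM per kb (SD, n = 12 captures). *Txn1*, the cytosolic thioredoxin, followed at 679 ± 653 CPM per kb, and *Prdx5*, a peroxiredoxin of mitochondria, peroxisomes and cytosol, at 398 ± 247 CPM per kb (SD, n = 12). Next came *Msrb1* at 239 ± 226, *Gpx4* at 102.3 ± 118 and *Sod1*, the cytosolic copper-zinc dismutase, at 82 ± 88.9 CPM per kb (SD, n = 12). The lowest levels were those of the cytosolic peroxiredoxin *Prdx1* at 45.6 ± 68.4, of *Msra*, which reduces the S form of methionine sulfoxide, at 31.3 ± 31.8, of *Cat* (catalase) at 21.2 ± 31.3, and of *Sod2*, the mitochondrial manganese dismutase, at 11.5 ± 14.7 CPM per kb (SD, n = 12). Only the step from *Gpx1* to *Txn1* was larger than the SD of the difference within captures, and *Gpx1* was above *Txn1* in 11 of 12 captures. Each of the other 8 neighbouring pairs in this order differed by less than that SD, with the higher gene ahead in 6 to 9 of 12 captures.

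Many capture values rested on 1 cell. In capture 36, 1 cell held 99.9% of the *Sod1* reads, and in capture 21c 1 cell held 99.1% of the *Prdx1* reads. Over the whole table, 1 cell held 41.5% of the *Cat* reads, against 4.19% of the *Gpx1* reads. *Gpx1* and *Msrb1* (4.96%) were the members with the smallest share of reads in 1 cell.

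**Figure D1:**
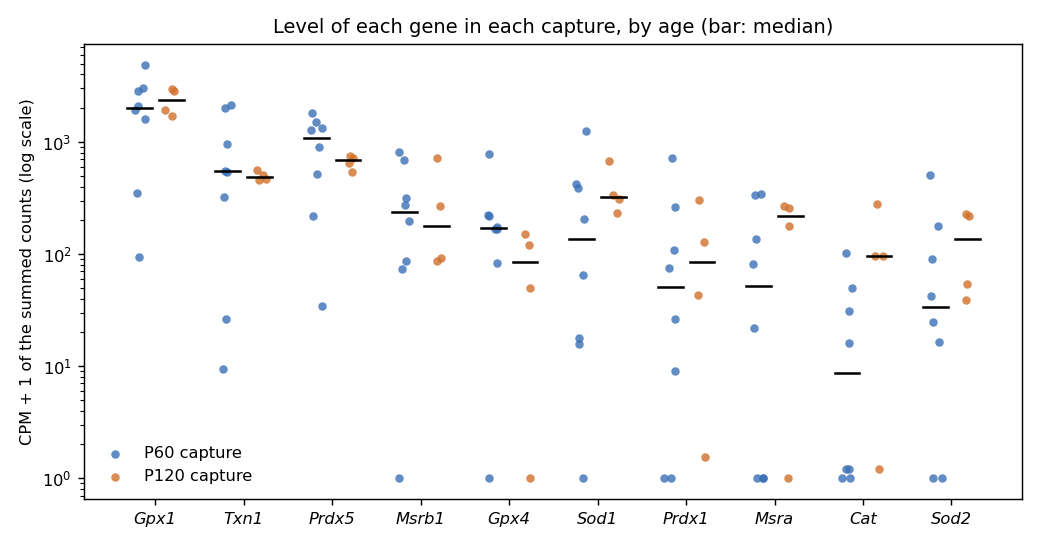
Each point is 1 capture, P60 in blue (8 captures) and P120 in orange (4 captures), and the vertical log axis gives CPM + 1 of the summed counts, with black bars at the medians and genes ordered by level per kb. Points of the 2 ages overlap for every gene, and *Gpx1* spans 92.3 to 4883 CPM at P60.

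The share of thinned cells with at least 1 read followed a similar order. *Gpx1* was present in 146 of 164 cells, or 89%, with an exact Clopper-Pearson 95% interval from 83.2% to 93.4%. *Txn1* was present in 80.5%, *Prdx5* in 75% and *Msrb1* in 67.1% of cells, so the reductase was seen in most cells. The middle of the range was taken by *Gpx4* at 45.1%, *Msra* at 36% and *Sod1* at 32.9%. *Sod2* was present in 27.4%, *Prdx1* in 18.9% and *Cat* in 14% of cells, the last with an interval from 9.10% to 20.3%. Of the 10 members, 8 reached 25% of thinned cells, against 17 of 56 other redox genes and 9.03% of the 17168 genes with a thinned read, which describes a list of well-known genes and is no test. A cell held a median of 5 members at this depth, with quartiles of 3 and 6. All 10 were present in 2 cells and none in 1 cell.

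In the unthinned counts of all 211 cells, reads were found for *Gpx1* in 93.8%, for *Msrb1* in 73.9% and for *Cat* in 20.9% of cells. The order of the members by share was the same in thinned and full counts for the 5 most widespread genes, *Gpx1*, *Txn1*, *Prdx5*, *Msrb1* and *Gpx4*. Where a member was present in a thinned cell, its median count was 70 reads for *Gpx1*, 42 for *Prdx5*, 21 for *Txn1* and 9.5 for *Msrb1*. *Sod1*, although less widespread, had a median of 17.5 reads in the cells that held it, and *Cat* and *Sod2* had 5.

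**Figure D2:**
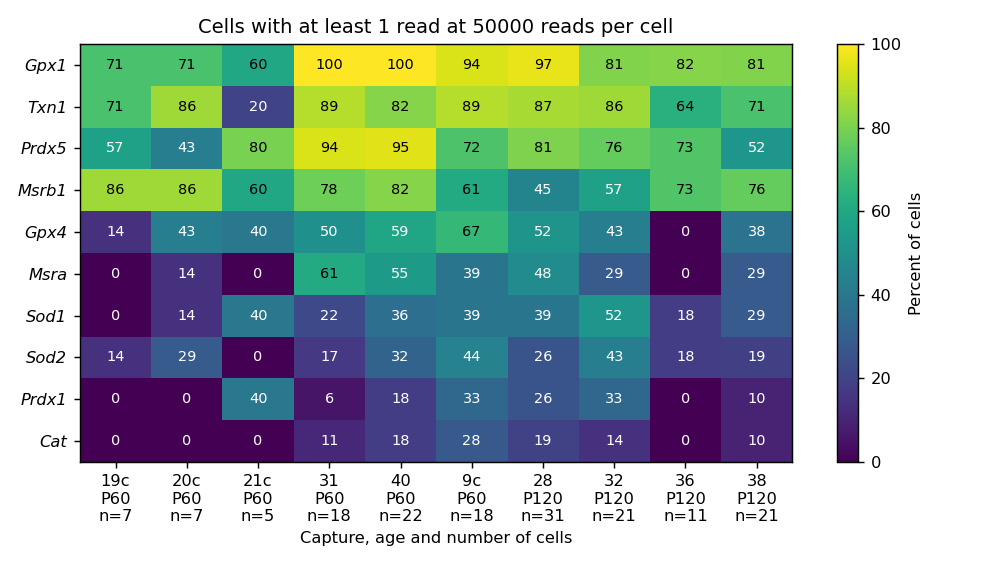
Rows are the 10 genes and columns the 10 captures with at least 3 cells of 50000 reads, with the age and the number of cells under each, and each number and colour is the percent of thinned cells with at least 1 read. *Gpx1* stays between 60 and 100 in these captures, while *Cat* reaches at most 27.8.

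The comparison of ages asks whether these genes differ between cochlear cells of P60 and P120 mice, which the study groups together as mature. No member passed the test in either the summed level or the share of cells. *Gpx1* lay between 92.3 and 4883 CPM at P60, with a median of 1998, and at 1698, 1907, 2848 and 2982 CPM in P120 captures 28, 32, 36 and 38. *Prdx5* lay between 33.5 and 1795 CPM at P60, with a median of 1085, and at 750, 535, 645 and 719 CPM in the same P120 captures. *Txn1* lay between 8.35 and 2153 CPM at P60, with a median of 546, and at 501, 563, 461 and 465.6 CPM at P120. For these 3 genes the P120 captures lay within the range of the P60 captures and closer together than those. The ends of the P60 range rest on few reads or cells. The lowest values were 11 reads of *Gpx1* and 4 of *Prdx5* in capture 10c, and 39 of *Txn1* in 1 cell of 21c. In capture 17c, the highest for *Gpx1* and *Txn1*, 1 cell held 98.1% and 89.3% of their reads. Whether the spread differs with age was not tested.

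Among the repair enzymes, *Msrb1* lay between 0 and 818 CPM at P60, with a median of 234, and at 90.3, 85.4, 718 and 267 CPM in captures 28, 32, 36 and 38. *Msra* lay between 0 and 341 CPM at P60, with a median of 50.5, and at 179, 267, 0 and 257 CPM at P120. The 0 values at P60 include capture 10c, where 3 reads, the limit that a count of 0 allows, are worth 25.2 CPM. In capture 36 that limit is 0.329 CPM.

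Of the dismutases, *Sod1* lay between 0 and 1246 CPM at P60, with a median of 135, and at 230, 310, 670 and 337 CPM at P120. *Sod2* lay between 0 and 503 CPM at P60, with a median of 32.4, and at 37.7, 228, 218 and 53 CPM at P120. *Cat*, the peroxisomal catalase, lay between 0 and 101.5 CPM at P60, with a median of 7.63, and at 94.7, 281, 0.219 and 94.3 CPM at P120. *Cat* was high in 3 of the 4 P120 captures and in P60 capture 31, where 1 cell held 99.9% of its reads, and in capture 32, the highest, 1 cell held 97%.

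Of the other peroxide-removing enzymes, *Gpx4* lay between 0 and 774 CPM at P60, with a median of 171, and at 119, 48.5, 0 and 150 CPM at P120. *Prdx1* lay between 0 and 714 CPM at P60, with a median of 49.6, and at 127, 305, 0.548 and 42.2 CPM at P120. For both genes the highest P60 value came from capture 21c, whose 5 cells include 2 with SC genes. *Gpx4* was highest there, at 2230 CPM, in a cell without SC genes, and stood at 927 and 0 CPM in the 2 cells with them. The ages overlapped for all 10 members.

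Counts summed per capture were tested with the quasi-likelihood F test of edgeR, with Benjamini-Hochberg adjustment over 8346 genes. The test called 10 genes, or 0.12%, and 0 of the 10 members, with 0 members at an unadjusted p under 0.05 and 0 called by DESeq2 or limma. The log2 fold change of P120 over P60 was largest for *Cat*, at 2.00 with a standard error of 1.88, and lowest for *Gpx4*, at -1.60 with a standard error of 1.74 (adjusted p = 1 in edgeR for each). For *Gpx1* it was 0.73 with a standard error of 1.26, and for *Msrb1* 0.61 with a standard error of 1.42. The median over the members was 0.66 and over all genes tested 0.26. *Cat*, *Gpx4* and *Gpx1* kept their sign under all 19 alternatives, without passing the test under any. All 6 captures of 1 sequencing run were P60, and within the captures of the runs that hold both ages the values of *Txn1*, *Prdx1* and *Msra* changed sign.

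Shares of thinned cells were compared over the 10 captures with at least 3 such cells, by a two-sided exact permutation test whose 210 arrangements allow no p below 0.00476. Of 1551 genes seen in at least 25% of cells, 0 were called after adjustment, a share of 0%, and 20 had an unadjusted p under 0.05. Adjustment over this many genes calls none unless many share that smallest p, so the 0 says little about single genes. The 8 members in this test had 0 calls and 0 unadjusted p under 0.05. *Msrb1* was present in 75.4% ± 11.8 of cells at P60 (SD, n = 6 captures) and 62.8% ± 14.4 at P120 (SD, n = 4 captures), a difference of -12.6 points with an exact permutation p of 0.167. *Gpx4* was present in 45.5% ± 18.2 at P60 and 33.1% ± 22.8 at P120, a difference of -12.3 points with an exact permutation p of 0.376. *Gpx1* was present in 82.9% ± 17.4 at P60 and 85.1% ± 7.78 at P120. Without thinning the difference for *Msrb1* was 2.14 points in the cells of at least 50000 reads and -1.05 points in cells of any depth of these 10 captures, and 10.1 points in cells of any depth with captures 10c and 17c added.

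The cells were next compared by class, because the marker genes divide them. A basophil class was set aside first and holds 26 cells with reads of both *Mcpt8* and *Prss34*, proteases of basophils. Among the remaining cells, a primary granule class holds 26 cells with at least 2 thinned reads of 2 or more of *Elane*, *Mpo*, *Prtn3*, *Ctsg* and *Ms4a3*, which encode the granule proteins of granulocyte precursors or mark these cells. The primary granule rule was also met by 15 of the 26 basophil class cells, so this class holds 26 of the 41 cells that meet it. The 112 cells in neither class are called other cells, and they include 3 cells with SC genes. None of the 10 members was used to form the classes. The cut is a range and not a type, with 4 primary granule cells at exactly 2 of the 5 genes and 13 of the other cells at 1.

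Members were seen in more cells of the primary granule class. A median of 7 members was present per primary granule cell, 6 per basophil class cell and 4 per other cell. *Gpx1*, *Txn1* and *Prdx5* were each present in 26 of 26 primary granule cells, with an interval from 86.8% to 100%. In the other cells they were present in 84.8%, 71.4% and 70.5%. *Gpx4* was present in 84.6% of primary granule cells and 33% of other cells, and *Msra* in 65.4% and 28.6%. *Sod1* was present in 57.7% of primary granule, 69.2% of basophil class and 18.8% of other cells.

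*Cat* and *Prdx1* were rare outside these classes. *Cat* was present in 11 of 26 primary granule cells (42.3%, interval 23.4% to 63.1%), 7 of 26 basophil class cells (26.9%) and 5 of 112 other cells (4.46%, interval 1.47% to 10.1%). *Prdx1* was present in 30.8% of primary granule, 50% of basophil class and 8.93% of other cells. *Msrb1* did not follow this pattern, with 69.2% of primary granule, 38.5% of basophil class and 73.2% of other cells. *Sod2* was present in 38.5% of both classes and 22.3% of other cells.

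**Figure D3:**
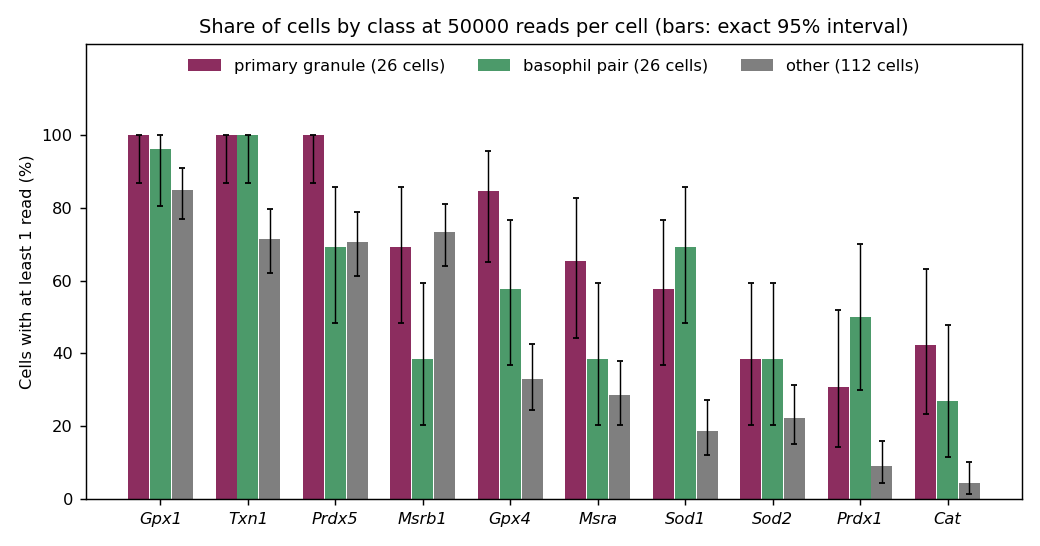
Bars give the percent of thinned cells with at least 1 read for each gene in the primary granule class (26 cells), the basophil class (26 cells) and the other cells (112 cells), and the error bars are exact 95% intervals for counting error. *Cat* stands at 42.3%, 26.9% and 4.46%, while *Msrb1* stands at 69.2%, 38.5% and 73.2%.

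These shares moved with the number of genes seen. At 50000 reads a primary granule cell held a median of 2482 genes, a basophil class cell 2177 and another cell 866, and the part of this difference in the shares was not tested. Within the 4 captures that hold at least 3 cells of the primary granule and other classes, the share was higher in primary granule cells in 4 of 4 captures for 6 members, *Msra*, *Sod1*, *Prdx5*, *Txn1*, *Gpx4* and *Cat*. Over the 4390 genes seen in at least 10% of thinned cells, 37.6% showed the same. The difference for *Cat* ran from 21.9 to 66.7 points over these captures, and that for *Gpx4* from 28.8 to 60 points. *Msrb1* ran from -31.4 to 50 points and was higher in 2 of 4 captures.

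In summed levels the classes differed in another way. *Gpx1* stood at 4621 CPM in primary granule, 1845 in basophil class and 1701 in other cells. *Prdx5* stood at 1198 CPM in primary granule and 1082 in other cells, and at 156 CPM in the basophil class. *Msrb1* stood at 59.3 CPM in primary granule, 83.9 in basophil class and 262 in other cells. *Sod1* and *Prdx1* were highest in the basophil class, at 564 and 438 CPM, and without the 1 cell of that class with most reads they stood at 476 and 304 CPM. *Cat* stood at 355 CPM in the basophil class, 172 CPM in primary granule and 19.1 CPM in other cells. One basophil class cell held 79.7% of that class's *Cat* reads, and without it *Cat* stood at 79.5 CPM there, below the primary granule level. These class levels pool captures, and 22 of the 26 basophil class cells are from P120, so no test was made of that class.

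The primary granule and other cells were tested by edgeR on counts summed per capture and class, with the capture as a block, in captures 28, 31, 40 and 9c. Of 10284 genes 85 were called, or 0.827%, and 0 of the 10 members, with 0 members at an unadjusted p under 0.05 in edgeR, 1 in DESeq2 and 0 called by either. DESeq2 called 1961 genes in the same comparison, or 19.1%. The log2 fold change of primary granule over other cells was 3.26 for *Cat* (standard error 1.98, adjusted p = 0.525) and 0.66 for *Gpx1* (standard error 0.55, adjusted p = 0.692). For *Msrb1* it was -2.29 (standard error 1.58, adjusted p = 0.603), and for *Sod2* -2.28 (standard error 1.99, adjusted p = 0.715). The median over the members was -0.75 and over all genes tested 0.06. These fold changes rest on captures 28, 31, 40 and 9c only, with TMM scaling and a capture block. The pooled CPM above covers all captures with cells of a class. For *Msra*, *Prdx5* and *Gpx4* they were negative (-1.82, -0.90 and -0.37), although the pooled CPM was higher in primary granule cells. The other members had the same direction in both. In captures 40 and 9c, *Msra* stood at 49.9 and 149 CPM in primary granule cells and 494 and 480 CPM in other cells. In captures 28 and 31 it stood at 256 and 149 CPM in primary granule cells and 185 and 131 CPM in other cells. *Prdx5* was lower in primary granule cells in captures 28 and 40, and *Gpx4* in capture 31 only. The parts of the set of captures and of the scaling in this were not tested. The signs of *Cat*, *Gpx1*, *Msrb1* and *Sod2* held under all 9 alternatives, and those of *Sod1*, *Prdx1* and *Gpx4* did not. The standard errors of the members ran from 0.55 for *Gpx1* to 3.02 for *Prdx1*.

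Co-expression across cells was read as Spearman's rho of thinned counts over 164 cells, as a description, since cells share captures, depth and class. The median over the 45 pairs of members was 0.10. Over the 28 pairs of the 8 members seen in at least 25% of cells it was 0.053. All pairs of the 1551 genes seen in at least 25% of cells had a median of 0.10. The strongest pairs were *Sod1* with *Prdx1* at a rho of 0.48, *Sod1* with *Cat* at 0.39 and *Prdx1* with *Cat* at 0.36. *Prdx1* was present in 44.4% of the cells with *Sod1* and 6.36% of the cells without it. Ranked within captures, these 3 pairs had a rho of 0.43, 0.38 and 0.30, and among the 112 other cells 0.33, 0.23 and 0.23. In the basophil class, 13 of 26 cells held both *Sod1* and *Prdx1* and 0 held *Prdx1* alone, which allows a share of up to 11.5% of its cells.

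*Msrb1* was set apart from the other members. Its rho was negative with *Prdx1*, *Sod1*, *Sod2*, *Cat*, *Gpx4* and *Msra*, and near 0 with *Gpx1*, *Txn1* and *Prdx5*. The lowest of all 45 values was that of *Msrb1* with *Prdx1*, at -0.41. Only 9 of 164 cells (5.49%) held both genes, while 61.6% held *Msrb1* alone, 13.4% *Prdx1* alone and 19.5% neither. Within captures this rho was -0.36, and among the 112 other cells it was -0.32. In those other cells, 3 held both, 79 held *Msrb1* alone and 7 held *Prdx1* alone. The cells with SC genes make up 3 of these 7, and among the other cells without SC genes 4 held *Prdx1* alone and the rho was -0.25. In the basophil class the split was 1, 9 and 12 cells.

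**Figure D4:**
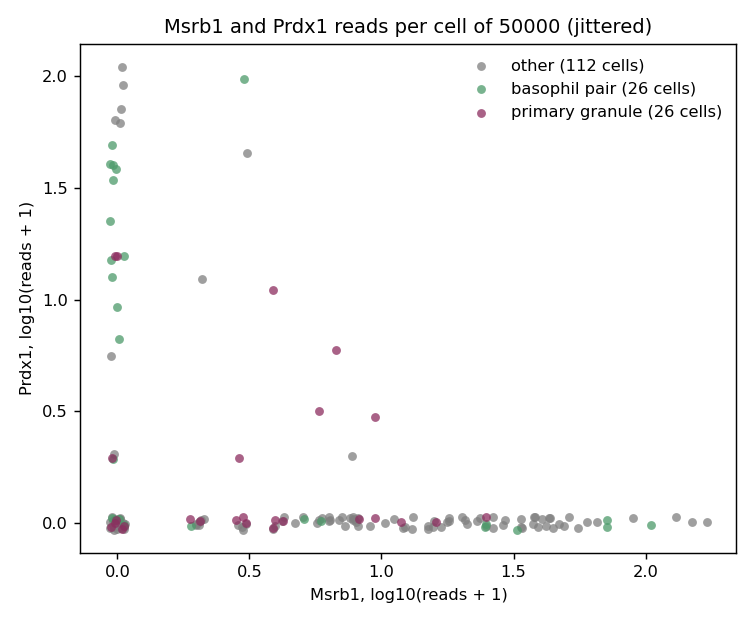
Each point is 1 of 164 thinned cells, coloured by class, with *Msrb1* reads on the horizontal and *Prdx1* reads on the vertical axis, both as log10(reads + 1) of 50000 reads, with a small random shift so that points do not hide each other. Nearly all points lie along an axis, and 9 cells hold reads of both genes.

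*Msrb1* fell against the number of genes seen at 50000 reads, with a rho of -0.39, while the other 9 members had values from 0.14 for *Txn1* to 0.56 for *Sod1*. With the normalized GFP intensity of the captured cell, *Msrb1* had a rho of 0.23, and *Prdx1* had the lowest value, -0.31. The 2 methionine sulfoxide reductases, which repair opposite forms of the same damage, were present together in 41 cells, with *Msrb1* alone in 69, *Msra* alone in 18. Their rho was -0.11 over all cells and -0.01 within captures, and *Msra* was present in 37.3% of the cells with *Msrb1* and 33.3% of those without it.

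**Figure D5:**
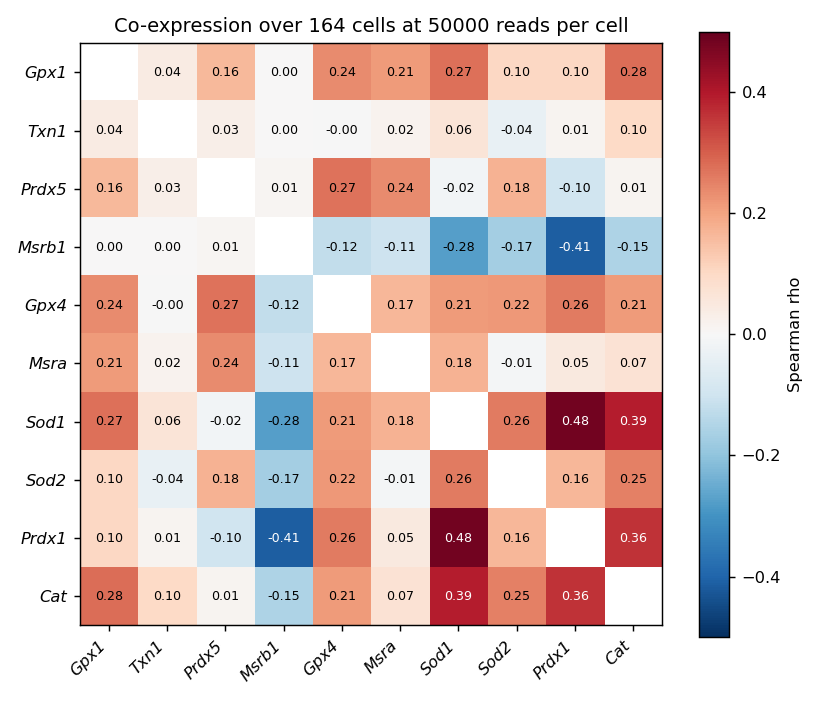
Each square is the Spearman rho of 2 members over 164 cells thinned to 50000 reads, from blue (negative) to red (positive), with genes ordered by the share of cells that hold them. The row of *Msrb1* is blue or white throughout, down to -0.41 with *Prdx1*, and the squares of *Sod1*, *Prdx1* and *Cat* are the reddest, up to 0.48.

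For the 3 most widespread members, the nearest genes by rho were sought among the 1551 genes. *Gpx1* was closest to *Ndufa3*, a subunit of mitochondrial complex I, at 0.47, to the tubulin gene *Tuba4a* at 0.45 and to *1810037I17Rik* at 0.43. *Prdx5* was closest to *Chil1* at 0.45, *Arhgdib* at 0.45 and *Wfdc21* at 0.45. *Txn1* had no near neighbour, its highest values being 0.29 with *L3mbtl3* and 0.28 with *Gm15501* and with *Rell1*.

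For all members with a matched promoter, the 250 bases before the RefSeq start sites (GRCm38.p6) were read. The core of the antioxidant response element, TGACNNNGC, was sought on both strands. Of 12 promoters of 9 matched members, 2 held it, those of *Sod1* and *Prdx1*, against 10.2% of 32851 mouse promoters. By gene, 2 of 9 members held it, against 11.5% of 27025 genes, and a link to the co-expression was not tested. The motif begins 56 bases before the start of *Sod1* and 133 bases before that of *Prdx1*. It lies on the minus strand in each, so the capitals below show its reverse complement. This match is a description of letters and not a binding site.
*Sod1*, chr16:90220681-90220739, + strand: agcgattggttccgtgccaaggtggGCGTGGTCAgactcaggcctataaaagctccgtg
*Prdx1*, chr4:116685441-116685499, + strand: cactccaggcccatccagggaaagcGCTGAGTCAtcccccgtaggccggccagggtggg

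The members were also read in the 5 cells with SC genes, which came from captures 9c, 21c and 28. *Sod1*, *Prdx1* and *Gpx1* were present in 5 of 5 of these cells, *Gpx4* and *Prdx5* in 4, and *Msrb1* in 2. *Sod1* reached 5759 CPM in the cell with the largest SC share, where SC genes took 7.56% of reads and neutrophil genes 0.00373%. *Prdx1* stood at 1764 CPM in the cell of capture 9c and 1556 CPM in a cell of capture 21c, neither of which held a read of *Msrb1*. The 2 cells of capture 28 held all 10 members, with neutrophil genes at 4.33% and 13.4% of their reads and SC genes at 0.0987% and 0.723%. In the cell of capture 9c, SC genes took 0.624% and neutrophil genes 0.621% of reads, and *Sod1* stood at only 1.41 CPM. Outside capture 21c, SC genes thus did not clearly exceed neutrophil genes. In capture 21c, the 3 cells outside these 5 held *Msrb1* at 666 to 892 CPM and no read of *Sod1* or *Prdx1*. With 5 cells no comparison was tested.

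Beside the members, 56 other redox genes were read in 5 groups. Of the thioredoxin and glutaredoxin system, *Glrx* stood at 727 ± 569 CPM and *Txnip*, which inhibits thioredoxin, at 257 ± 248 CPM (SD, n = 12 captures). Of the remaining peroxidases and dismutases, *Prdx6* stood at 540 ± 418 CPM and the mitochondrial *Prdx3* at 48.9 ± 83 CPM. The highest of the glutathione genes were *Mgst1* at 415 ± 312 CPM and *Gstm1* at 390 ± 555 CPM. *Taldo1* at 803 ± 434 CPM and *Pgd* at 334 ± 175 CPM, enzymes of the pentose phosphate pathway, led the group of NRF2 targets and NADPH supply. *Selenok* at 420 ± 315 CPM and *Sephs2*, which makes the selenium donor for selenocysteine, at 289 ± 338 CPM led the selenoprotein group.

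Of these 56 genes, 43 were tested between the ages and 0 were called in edgeR, with a median log2 fold change of 0.32 against 0.26 over all genes. Between primary granule and other cells, 51 were tested, 1 was called higher and 1 lower in edgeR, or 2 of 51 against 0.827% of all genes, and their median was 0.59 against 0.06 over all genes. *Gstm1*, a glutathione S-transferase with closely similar family members, stood at 2713, 1189, 2123 and 1308 CPM in the primary granule cells of captures 28, 31, 40 and 9c, and at 16.5, 113, 41.8 and 26.5 CPM in their other cells. Its log2 fold change was 4.70 (standard error 0.99, adjusted p = 0.0124 in edgeR), higher in 4 of 4 captures, and the call was lost without capture 28 (adjusted p = 0.105) or 9c (adjusted p = 0.0714). *Slc7a11*, which imports cystine for glutathione synthesis, stood at 0.527, 0.285, 2.62 and 7.22 CPM in the primary granule cells and at 241, 1254, 113 and 219 CPM in the other cells of the same captures. Its log2 fold change was -8.24 (standard error 1.54, adjusted p = 0.00421 in edgeR), lower in 4 of 4 captures, and the call was lost without capture 31 (adjusted p = 0.139). DESeq2 called both genes in the same direction, and in all it called 10 of the 51 higher and 5 lower, against the 19.1% of all genes that it called.

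Some members share sequence with related or overlapping genes, where reads may be hard to assign. *Gpx4* shares 733 bases at 99.7% identity with the pseudogene *Gpx4-ps2*, which was not used here. The pseudogene copies of 3 members drew few reads, at most 0.352% of those of *Sod1* (*Gm8566*), 0.315% of those of *Prdx1* (*Gm21399*) and 0.0553% of those of *Txn1* (*Txn-ps1*). *Prdx5* overlaps *Trmt112* on the opposite strand over 409 bases, and *Trmt112* had 2.28% as many reads. *Sod1* overlaps *Scaf4* over 650 bases, also on the opposite strand, and *Scaf4* had 7.56% as many reads. The *Sod2* transcript shares a stretch of 200 to 210 bases at 90.4% identity or more with 11 genes. The 10 of these in the table together had 398% as many reads as *Sod2*, of which *Ythdc1* alone had 158%. These are reads of the whole genes, and how many fall on the shared stretch was not measured. *Msrb1*, *Msra*, *Gpx1* and *Cat* had no such copy.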

How the data were processed

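Single cells of Lfng-EGFP cochleae were profiled at P60 and P120. According to the study's methods, the authors aligned de-multiplexed reads with STAR to GRCm38 with the vM11 annotation. They deposited raw read counts per gene and cell, without molecular identifiers or normalization, plus a table of age, capture, sequencing run, uniquely mapped read counts and a normalized GFP intensity, a score the authors scaled from images in a way not given in the sources used here. Symbols, positions and exon lengths came from GENCODE vM21 on the same build. Spike-in sequences were left out.

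The counts of all cells of a capture, or of a class within it, were summed and tested with edgeR 4.0.16 (TMM, filterByExpr, quasi-likelihood F test) in R 4.3.3, with Benjamini-Hochberg adjustment at 0.05 over all genes tested. DESeq2 1.42.0 and limma 3.58.1, on the mean of log2(CPM + 1), served as alternatives. Each cell was thinned to 50000 reads with a fixed seed for shares, classes and co-expression, and 47 cells below that depth were left out. Shares were compared with exact permutation tests, checked against scipy 1.17.1. Intervals cover counting error only, because PCR reads without molecular identifiers are not independent molecules. No doublet caller was run, and the study imaged each capture site. Copies were sought with blastn 2.17.0, at 200 or more aligned bases and 90% identity. The tests were tried on simulated data. Other tools were Python 3.11.15, numpy 2.4.6, pandas 2.3.3 and matplotlib 3.10.9.

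The members and gene lists were chosen with earlier results of these data known. Named genes are the members, the 2 redox genes of each group with the highest mean CPM, redox genes that passed a test, the 3 nearest genes of the 3 most widespread members, the class markers and annotated copies of members.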

Additional observations from a re-analysis of the deposited data

Results flagged for a closer look

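In 6 of 40 sets of capture values (the CPM and the thinned share of each member at each age), 1 capture stood far from the rest of its age by Dixon's criterion. Chance flags about 1 in 20 sets that are independent and normally distributed. The sets here share captures and genes, and some values rest on 1 cell, so the count of 6 is no test. Capture 21c accounts for 4 of the 6 flagged sets. It had the highest P60 levels of *Sod1* (1246 CPM, next 424), *Prdx1* (714 CPM, next 260) and *Gpx4* (774 CPM, next 222), and the lowest P60 share of thinned cells with *Txn1* (20%, next 71.4%). It holds 5 cells, and 2 of its cells held all of its *Sod1* and *Prdx1* reads. SC genes took 1.77% of the reads of this capture. Capture 20c had the highest P60 level of *Sod2*, at 503 CPM against 176 in the next, with 65.3% of it in 1 cell. Capture 28 had the highest P120 share of thinned cells with *Gpx1*, at 96.8% against 81.8% in the next.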

How the results depend on the processing

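Depth, the few cells that carry most reads of a gene and the number of captures limit these results. No member was called under any alternative, while the counts of genes called between the ages ran from 1 to 16 with 1 capture left out. That count was 10 in the reported fit, 2 in the captures of runs with both ages, 5 with cells thinned, 0 in limma, 22 without the filter on low counts and 3 in the other class only, a setting chosen after seeing the data. Between the classes 85 genes were called, 1961 by DESeq2, 152 without the filter, and 59 to 96 with 1 capture left out. The count of genes called on shares was 0 throughout, which the few arrangements of captures made likely in advance. In the runs with both ages the smallest possible permutation p is 0.0667, so no call could arise there. The median rho over pairs stayed between 0.0895 and 0.136 over the processing settings. Within single captures of at least 10 thinned cells it ran from -0.22 in capture 36 to 0.15 in capture 32. The SD over these 7 captures was 0.12. The cause of each change below was not tested.

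The log2 fold change between the ages changed sign for *Msrb1* in DESeq2 (-0.052) and limma (-0.025), for *Msra* in the runs with both ages (-0.51), the other class (-0.63) and limma (-0.16), for *Prdx1* in those runs (0.85) and limma (0.14), for *Txn1* in those runs (0.41) and limma (0.10), and for *Prdx5* in the other class (0.061). With 1 capture left out it ran from -1.24 to 1.04 for *Msrb1*, -1.58 to 0.64 for *Prdx1*, -0.58 to 0.10 for *Prdx5*, -0.041 to 2.06 for *Sod1*, -0.32 to 2.18 for *Sod2* and -0.90 to 0.10 for *Txn1*. Between the classes it changed sign for *Sod1* (0.60) and *Prdx1* (2.25) with the basophil class kept, a setting also chosen after seeing the data that adds captures 32 and 38, and for *Gpx4* with cells thinned (0.27). With 1 capture left out it ran from -1.42 to 0.74 for *Sod1*, -3.88 to 0.45 for *Prdx1* and -0.73 to 0.18 for *Gpx4*.

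The difference in shares changed sign without thinning in cells of any depth, a setting that also adds captures 10c and 17c, for *Msrb1* (10.1 points), *Msra* (1.71) and *Prdx5* (9.12). In 2 settings without thinning that keep the 10 captures, chosen after seeing the data, it changed sign in cells of at least 50000 reads for *Msrb1* (2.14), *Msra* (1.50) and *Prdx5* (0.54), and in cells of any depth for *Msra* (1.25). It also changed sign with 2 reads required for *Txn1* (-1.43), and in the runs with both ages for *Txn1* (-8.38), *Gpx1* (-14.9) and *Cat* (-3.86). With 1 capture left out it ran from -1.58 to 4.93 points for *Cat*, -2.34 to 5.66 for *Gpx1*, -9.09 to 7.04 for *Msra*, -4.40 to 6.71 for *Prdx1*, -9.37 to 2.83 for *Prdx5*, -1.62 to 8.20 for *Sod2* and -6.38 to 8.62 for *Txn1*. No paired analysis was made, because each capture holds cells of 1 age only.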
